A study of Mus musculus with 20 samples.

Results

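The serine proteases and serpin-type inhibitors examined here comprise every gene symbol of the Prss, Tmprss and Klk families followed by a digit, of the serpins Serpina to Serpini, and of Spink and Spint, together with St14, where the symbol occurs in the tables of both times. Serpine2, Spink4 and Klk1 were left out by name. This gave 53 genes of the 15882 symbols found in both tables, of which 26 encode proteases and 27 encode inhibitors or serpin-fold proteins.

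Serine proteases cut proteins through an active-site serine, and the inhibitors described with them block such enzymes by binding as a substrate does. In the gut epithelium the membrane-anchored proteases include matriptase (St14), prostasin (Prss8) and members of the Tmprss family, and matriptase and prostasin are held in check by the Kunitz-type inhibitors Spint1 and Spint2. Serpins trap a protease by changing shape after being cut, while Spink proteins are small Kazal-type trypsin inhibitors.

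RNA-seq had been made from jejunal epithelial cells of female mice. The double-knockout (DKO) libraries came from mice with ablation of Kdm6a and Kdm6b, whose products remove methyl groups from lysine 27 of histone H3, and the control libraries from mice labelled Control/WT. There were 7 DKO and 5 control libraries taken 7 days after ablation (acute) and 5 DKO and 3 control libraries taken 5 months after it (prolonged). The driver of the ablation, the inducing agent and the ages are not given in the sources used here, and nothing is named that both genotypes received. The labels number separate biological replicates, and the acute titles give each its own mouse number. The series design speaks of crypt cells, while the sample labels give intestinal epithelial cells.

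All 15 epithelial marker genes listed for the check of the label were present at both times, with summed levels of 20267 to 24473 CPM (counts scaled to the library's total reads in genes) in DKO libraries and 19012 to 22703 CPM in controls. Kdm6a had 38.5 to 45.7 CPM in acute DKO libraries and 57.7 to 72.6 CPM in acute controls, and 44.4 to 55.3 CPM and 70.8 to 82.6 CPM in prolonged DKO and control libraries. Kdm6b had 59.8 to 81.1 CPM in acute DKO libraries and 91.2 to 109 CPM in acute controls, and 71.4 to 82.9 CPM and 99.5 to 107 CPM in prolonged DKO and control libraries. No DKO library reached the lowest control of its time for either gene, with reads left in all of them. The totals of reads in genes lay between 12560843 and 26586045 in DKO libraries and between 9914738 and 26549494 in controls, with the fewest in prolonged control 3. Acute DKO 3 and DKO 4 stood apart from the other acute libraries on the first principal component, at 34.0 and 45.9 against -28.0 to 12.1, and their titles carry neighbouring animal numbers. The summed level of 10 crypt markers was 1190 to 2177 CPM in acute DKO libraries and 2495 to 3235 CPM in acute controls, and 2191 to 2476 CPM in prolonged DKO libraries and 2941 to 3491 CPM in prolonged controls. That of 13 villus enterocyte markers was 40756 to 54355 CPM in acute DKO libraries and 31895 to 47271 CPM in acute controls, and 49925 to 53965 CPM and 39490 to 52692 CPM in prolonged DKO and control libraries. That of 10 Paneth cell markers was 4056 to 12428 CPM in acute DKO libraries and 8370 to 10373 CPM in acute controls, and 3277 to 7874 CPM and 8599 to 9331 CPM in prolonged DKO and control libraries. The 12428 CPM was that of acute DKO 4. All other acute DKO libraries had 4056 to 7209 CPM, below every acute control. The part of these shifts in the results below was not tested. In bulk epithelium, fewer cells of a type and less RNA per cell cannot be told apart.

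A gene was counted as expressed where it reached 0.5 CPM in at least 5 acute or 3 prolonged libraries. Of the 53 genes, 32 were expressed at both times, 2 at the acute time only, 4 at the prolonged time only and 15 at neither. All 6 Tmprss genes, both Spint genes, St14, 10 of 14 Prss genes and Spink1 were expressed at one time or more, against 2 of 5 Klk genes and 16 of 23 serpins. The 15 genes below the minimum at both times were the kallikreins Klk1b27, Klk1b4 and Klk9, the proteases Prss22, Prss33, Prss48 and Prss50, the inhibitor Spink2, and the serpins Serpina1d, Serpina1f, Serpina3f, Serpina9, Serpinb8, Serpind1 and Serpinf1. Tmprss6 was among those that passed at the acute time only, and Klk1b5, Serpina1c, Serpina1e and Serpine3 passed at the prolonged time only. The Serpina1, Serpina3 and Klk1b genes have near-identical copies among which reads may be divided in an unknown way, so their single values are uncertain.

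Levels of different genes were compared as CPM per kb of exon, using gene model lengths of a later mouse annotation. Over all 20 libraries, 12 of the 38 expressed genes lay at 10 CPM per kb or more and 15 under 1. Spint2, which encodes the Kunitz inhibitor HAI-2, was highest at 797 ± 33.5 CPM per kb in acute DKO libraries and 741 ± 29.7 in acute controls (SD, n = 7 and 5). Spink1, the Kazal-type inhibitor that protects against trypsin, followed at 383 ± 76.1 CPM per kb in acute DKO libraries and 389 ± 44.5 in acute controls. Next came Serpinb1a, an inhibitor of neutrophil elastase and related proteases, at 305 ± 39.8 and 278 ± 26.6 CPM per kb, and Serpinb6a, an intracellular serpin, at 186 ± 12.3 and 171 ± 8.94 CPM per kb in the same acute DKO and control libraries. St14, Spint1 and Prss32 lay close together, at 154 ± 20.5, 145 ± 9.15 and 162 ± 23.2 CPM per kb in acute DKO libraries and 134 ± 6.18, 135 ± 8.22 and 113 ± 9.54 in acute controls. The spreads of these 3 genes overlapped in acute DKO libraries. In acute controls the spread of Prss32 lay below those of St14 and Spint1. By the mean over all 20 libraries Tmprss2, Tmprss4 and Prss30 lay below them, and Prss8 and Tmprss15 were the lowest of the 12. In controls, however, Tmprss2 lay above Prss32, at 117 against 113 CPM per kb at the acute time. At the prolonged time these control means were 110 and 96.2 CPM per kb.

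**Figure D1:**
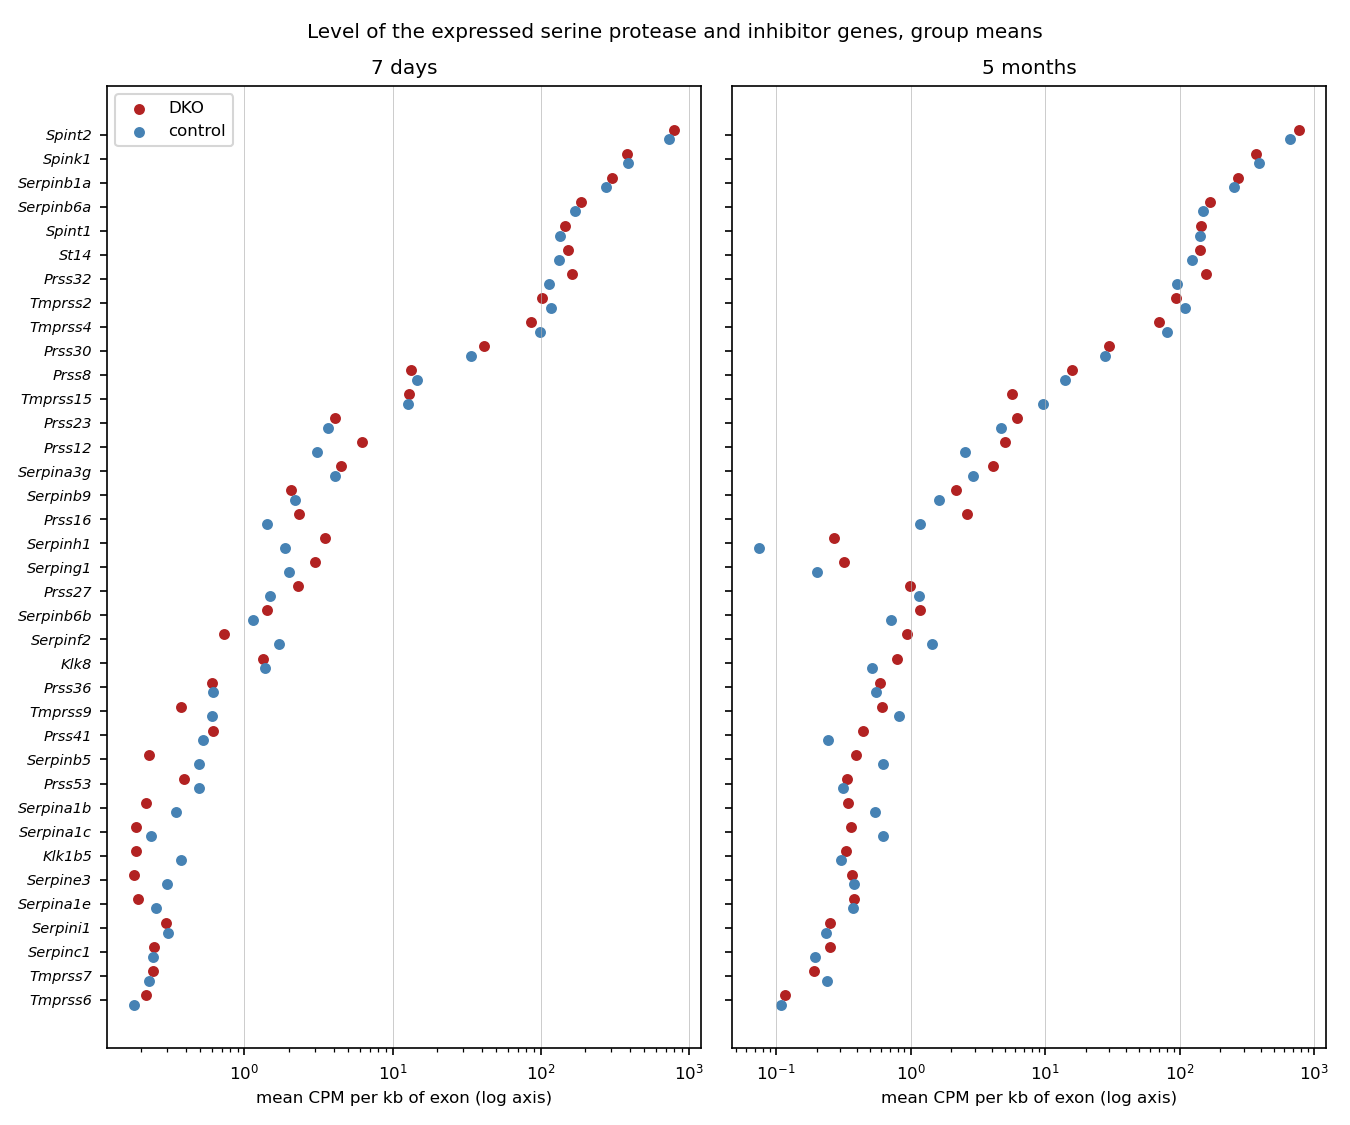
Group mean level of the expressed genes described here as CPM per kb of exon on a log axis, at 7 days (left) and 5 months (right), with DKO in red above control in blue. Spint2 is highest in every group, at 797, 741, 772 and 658 CPM per kb in acute DKO, acute control, prolonged DKO and prolonged control libraries.

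By limma on log2(CPM + 1), with Benjamini-Hochberg adjustment over all genes tested and a threshold of 0.05, 5 of the 34 genes tested at the acute time were called (14.7%), against 15.0% of all 13601 genes tested, so the share was near that of the whole table. They were 2 higher in DKO, Prss12 and Prss32 (all genes: 2.90% higher), and 3 lower, Serpinf2, Serpinb5 and Tmprss4 (all genes: 12.1% lower). After 5 months 10 of 36 were called (27.8%), against 14.7% of all 13316 genes tested. Of these, 7 were higher (all genes: 5.74%), namely Prss12, Prss32, Prss16, Prss23, St14, Spint2 and Serpinh1, and 3 lower (all genes: 8.94%), namely Tmprss2, Tmprss4 and Tmprss15. Serpinh1 is in these prolonged counts although only DKO libraries reached the minimum for it. Among genes that reached it in both groups, 9 of 35 were called (25.7%, all genes 14.5%), 6 of them higher (17.1%, all genes 5.59%). The median log2 fold change of the genes of the set was 0.05 at the acute time (all genes -0.07) and 0.09 at the prolonged time (all genes 0.00). With TMM scaling, which corrects for composition, the medians were 0.10 and 0.09 (all genes 0.01 at both times). This scaling also moved the acute calls over all genes from 394 higher and 1641 lower to 660 higher (4.85%) and 1124 lower (8.26%), and those of the set to 2 higher and 2 lower, the lost one being Tmprss4. Groups that did not overlap were found for 4 of 34 genes at the acute time (all genes 7.79%) and 11 of 36 at the prolonged time (all genes 20.5%), or 10 of 35 (28.6%, all genes 20.1%) among those that reached the minimum in both groups. The prolonged count of called genes rested partly on the shallowest library: without prolonged control 3 it was 5, namely Prss12, Prss16, Prss23, Prss32 and St14. Calls over all genes fell from 1955 to 1052 without that library. Without acute DKO 3 and DKO 4 the same 5 genes were called at the acute time, and 1707 of all genes against 2035.

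**Figure D2:**
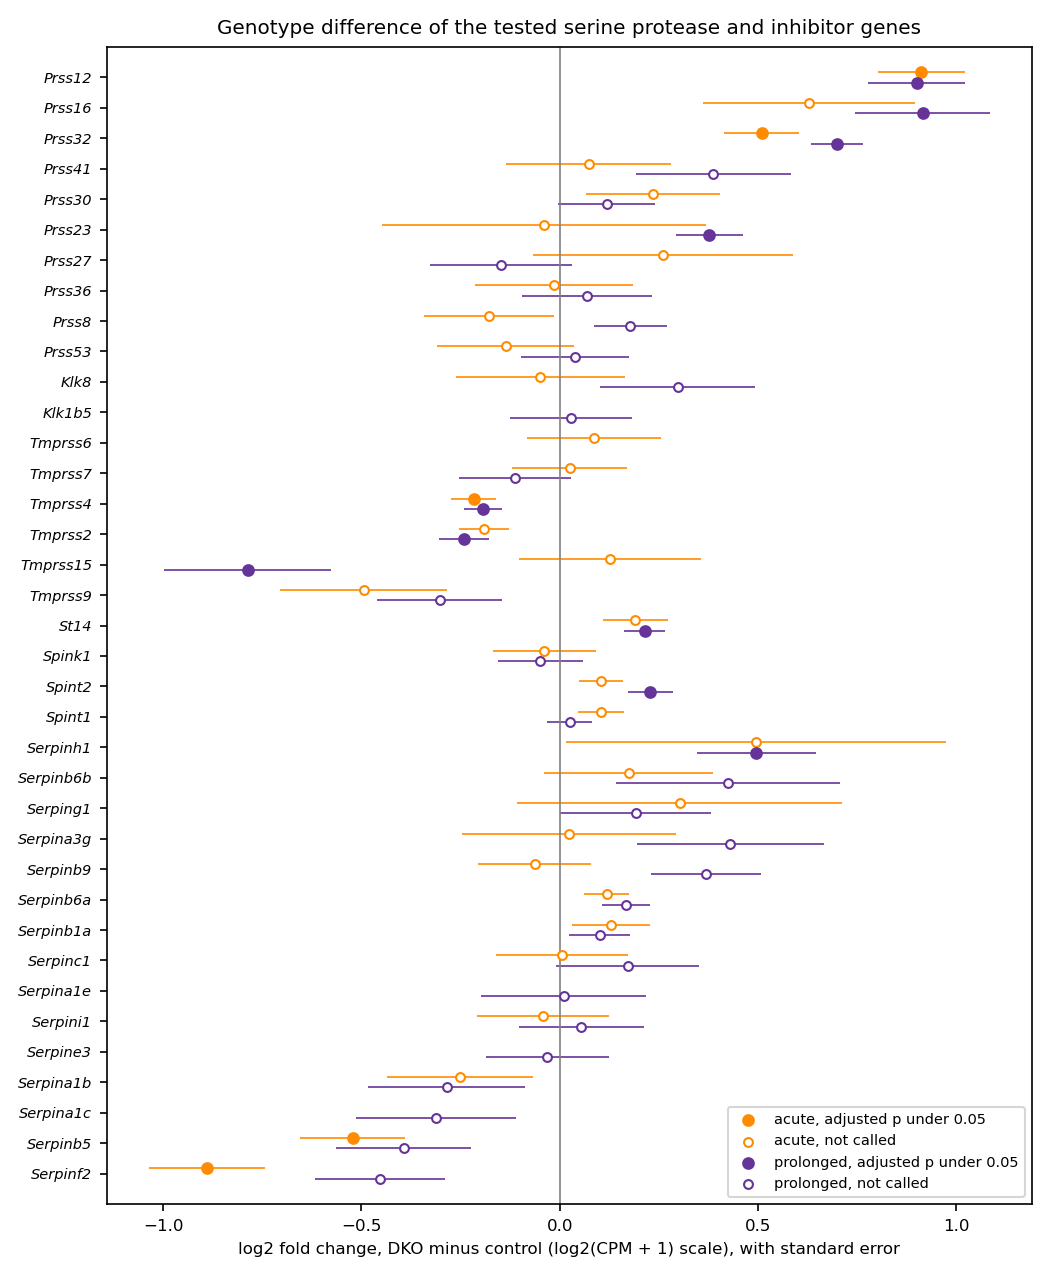
Log2 fold change of the tested genes described here, as log2(CPM + 1) in DKO less that in control, with the standard error, at the acute (orange) and prolonged (purple) time, grouped by family. Filled dots mark the 5 acute and 10 prolonged calls. Prss12 and Prss32 lie to the right and Tmprss4 to the left at both times.

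Of the secreted and membrane-tethered proteases of the Prss family, 10 were tested at each time. At the acute time 2 were called higher and 0 lower (all genes: 2.90% and 12.1%). At the prolonged time 4 were called higher and 0 lower (all genes: 5.74% and 8.94%). With 10 genes, none called lower is near these shares. Prss12, which encodes neurotrypsin, the protease that cleaves agrin at synapses, showed no overlap between genotypes at either time, with ratios of the mean CPM of 1.998 at 7 days and 1.987 at 5 months. It ranged from 12.4 to 19.9 CPM with a median of 16.4 in acute DKO libraries, against 9.38, 6.93, 7.90, 7.38 and 8.65 CPM in acute controls. Prolonged DKO libraries had 12.5, 11.9, 12.4, 15.2 and 13.5 CPM, against 5.26, 6.94 and 7.56 CPM in prolonged controls. The log2 fold changes were 0.91 ± 0.11 and 0.90 ± 0.12 (limma adjusted p = 0.000200 and 0.000624), and the call held in each of the 22 acute and 16 prolonged alternatives of scaling, test, filter and libraries.

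Prss32, which encodes a protease of the tryptase kind, was the most abundant Prss gene per length. It ranged from 227 to 326 CPM with a median of 269 in acute DKO libraries, against 214, 195, 190, 185 and 170 CPM in acute controls. After 5 months DKO libraries had 256, 273, 273, 264 and 253 CPM, against 179, 145 and 163 CPM in prolonged controls. The genotypes did not overlap at either time, and acute DKO 3 and DKO 4 were its highest libraries, at 320 and 326 CPM. The log2 fold changes were 0.51 ± 0.09 and 0.70 ± 0.07 (limma adjusted p = 0.00315 and 4.77e-05), and the acute value was 0.41 without these libraries. As with Prss12, the call held in each of the 22 acute and 16 prolonged alternatives. Their adjusted p values ran from 1.31e-05 to 0.0262 at the acute time.

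The promoters of both genes that rose at both times, and that of Serpinf2, which fell at the acute time, are shown because the deleted enzymes act on chromatin and CpG content is a basic property of a promoter. Each is the window of 300 bases, most of it upstream, at the annotated start in RefSeq (build GRCm38.p6, while the submitters' processing notes name mm9), and capitals mark each CG dinucleotide, which reads the same on both strands. The Prss12 window is chr3:123446663-123446962 on the plus strand, that of Prss32 is chr17:23853522-23853821 on the plus strand and that of Serpinf2 is chr11:75439452-75439751 on the minus strand.
Prss12: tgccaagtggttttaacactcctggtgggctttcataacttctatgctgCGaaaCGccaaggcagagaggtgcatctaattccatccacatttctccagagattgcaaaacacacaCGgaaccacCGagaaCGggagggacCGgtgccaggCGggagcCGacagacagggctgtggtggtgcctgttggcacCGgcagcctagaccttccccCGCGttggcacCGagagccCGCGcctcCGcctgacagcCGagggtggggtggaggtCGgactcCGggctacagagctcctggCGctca
Prss32: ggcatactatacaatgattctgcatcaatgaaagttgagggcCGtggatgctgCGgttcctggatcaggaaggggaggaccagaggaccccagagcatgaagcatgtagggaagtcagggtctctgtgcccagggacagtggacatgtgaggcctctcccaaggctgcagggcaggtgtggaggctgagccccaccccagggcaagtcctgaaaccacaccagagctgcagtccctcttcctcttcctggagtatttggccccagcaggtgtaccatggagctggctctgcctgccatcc
Serpinf2: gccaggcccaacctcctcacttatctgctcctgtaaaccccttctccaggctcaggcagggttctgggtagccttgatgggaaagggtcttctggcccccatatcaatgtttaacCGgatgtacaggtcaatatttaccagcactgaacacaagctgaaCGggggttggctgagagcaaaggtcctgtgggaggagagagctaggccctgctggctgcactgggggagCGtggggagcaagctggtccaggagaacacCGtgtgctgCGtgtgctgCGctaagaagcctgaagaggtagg
The Prss12 window holds 19 CG dinucleotides, and 28.1% of the 32851 promoter windows of the table hold at least as many. The Prss32 window holds 2 (85.9% hold at least as many) and the Serpinf2 window 6 (56.4%). The median over all windows was 7. The windows of both genes that rose thus lay on opposite sides of the median. This is a description of the letters, and no chromatin was measured in these libraries.

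Prss16, known as a thymus-specific serine protease, rose at the prolonged time. Prolonged DKO libraries had 5.33, 8.84, 5.91, 5.82 and 4.45 CPM, against 3.02, 2.41 and 2.62 CPM in prolonged controls, with no overlap. The log2 fold change was 0.92 ± 0.17 (limma adjusted p = 0.00409). At the acute time DKO libraries ranged from 2.97 to 10.02 CPM with a median of 4.96, against 6.63, 1.88, 1.88, 2.42 and 3.50 CPM in controls. Control 1 lay above 6 of the 7 DKO libraries and control 5 above the lowest of them, so the groups overlapped, and the log2 fold change of 0.63 ± 0.27 was not called (adjusted p = 0.136). Without acute control 1 it was 0.86 and was called (adjusted p = 0.0332). Without DKO 3 and DKO 4, the latter its highest library, it was 0.45 and was not called (adjusted p = 0.282). Over all 22 acute alternatives the adjusted p ran from 0.0332 to 0.628.

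Prss23, which encodes a secreted serine protease, also rose at the prolonged time. DKO libraries had 20.5, 19.2, 22.5, 22.3 and 20.3 CPM, against 17.1, 14.8 and 15.7 CPM in controls, with no overlap (log2 fold change 0.38 ± 0.08, limma adjusted p = 0.0113). At the acute time the DKO libraries were spread from 2.47 to 20.8 CPM with a median of 16.7, against 8.91, 16.2, 16.1, 11.2 and 10.03 CPM in controls. The lowest acute DKO values, 6.13 and 2.47 CPM, were those of DKO 3 and DKO 4, and the other DKO libraries lay at 13.5 CPM or more. The acute log2 fold change was -0.04 ± 0.41 with them (adjusted p = 0.964) and 0.50 without them (adjusted p = 0.0715), both not called.

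Prss32 has neighbours of its own family in the RefSeq gene order. Prss33, Prss41, Prss30, Prss22 and Prss27 lie in 1 run with it, with at most 9 protein-coding genes between consecutive ones. The neighbours Prss30, Prss27 and Prss41 were tested at both times and none was called. Prss30, an intestinal serine protease, ranged from 45.8 to 99.7 CPM with a median of 59.5 in acute DKO libraries, against 56.7, 54.9, 50.7, 46.0 and 66.5 CPM in acute controls (log2 fold change 0.24 ± 0.17, limma adjusted p = 0.398). After 5 months it had 44.1 to 50.3 CPM in DKO libraries and 33.0 to 52.7 CPM in controls (0.12 ± 0.12, adjusted p = 0.579). Prss27 and Prss41 are counted below among the genes of low level. Whether the Prss32 change differs from those of its neighbours was not tested.

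Matriptase, its inhibitors and prostasin form the best-described protease system of the gut surface. St14, the matriptase gene, ranged from 443 to 635 CPM with a median of 487 in acute DKO libraries, against 451, 417, 414, 437 and 460 CPM in acute controls, with overlap. At 5 months DKO libraries had 487, 482, 446, 449 and 452 CPM, against 391, 392 and 413 CPM in prolonged controls, with no overlap. St14 rose at the prolonged time by 0.21 ± 0.05 on the log2 scale (limma adjusted p = 0.0163). The acute value was 0.19 ± 0.08 (adjusted p = 0.140), and 0.10 without DKO 3 and DKO 4, the highest libraries at 535 and 635 CPM.

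Spint2, which inhibits matriptase and prostasin, had 1079, 1031, 1119, 1087 and 1023 CPM in prolonged DKO libraries, against 925, 878 and 928 CPM in prolonged controls. Every DKO library lay above every control, and the rise was 0.23 ± 0.06 on the log2 scale (limma adjusted p = 0.0181). That call was lost without prolonged control 2 or control 3 (adjusted p = 0.0564 and 0.0603, over all 16 alternatives 3.04e-05 to 0.150). At the acute time Spint2 ranged from 1036 to 1163 CPM with a median of 1111 in DKO libraries, against 969, 1074, 1027, 1054 and 1006 CPM in controls. The groups overlapped, and 5 of 7 DKO libraries lay above every control. The acute log2 fold change was 0.10 ± 0.05 by limma (adjusted p = 0.234) and 0.19 with TMM-scaled CPM (adjusted p = 0.0595). edgeR called it under TMM and under relative log expression scaling (adjusted p = 0.0400 and 0.0367), as did DESeq2 (0.000141), and the authors' deposited table gives 0.20 with an adjusted p of 0.000288, so whether Spint2 passes at this time depends on the scaling and the test. Its adjusted p over all 22 acute alternatives ran from 0.000141 to 0.538.

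Spint1, which encodes the related inhibitor HAI-1, was not called at either time. It ranged from 335 to 395 CPM with a median of 364 in acute DKO libraries and from 307 to 364 CPM in acute controls (log2 fold change 0.10 ± 0.06, limma adjusted p = 0.253). In prolonged libraries it ranged from 335 to 376 CPM in DKO libraries and from 332 to 376 CPM in controls (0.03 ± 0.06, adjusted p = 0.818). Prss8, the prostasin gene, averaged 24.5 ± 6.29 and 27.2 ± 2.91 CPM in acute DKO and control libraries (n = 7 and 5, limma adjusted p = 0.521). In prolonged libraries it had 27.9 to 34.4 CPM in DKO libraries and 22.8 to 27.9 CPM in controls. Its lowest DKO library lay just above its highest control, and the log2 fold change of 0.18 ± 0.09 was not called (adjusted p = 0.234).

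The other transmembrane proteases that were called were lower in DKO. Tmprss4, a membrane protease of epithelial cells, was the gene called lower at both times. It ranged from 175 to 224 CPM with a median of 195 in acute DKO libraries, against 234, 240, 222, 221 and 219 CPM in acute controls, and 6 of 7 DKO libraries lay below every control. Prolonged DKO libraries had 157, 170, 162, 152 and 160 CPM, against 185, 180 and 185 CPM in prolonged controls, with no overlap. The log2 fold changes were -0.22 ± 0.06 and -0.19 ± 0.05 (limma adjusted p = 0.0216 and 0.0196). The acute call depended on the scaling. With TMM-scaled CPM the value was -0.13 (adjusted p = 0.289), and edgeR and DESeq2 did not call it either. It was also lost without acute control 1 (0.0559) or control 2 (0.0527), and the prolonged call was lost without prolonged control 3 (0.0854). Over the alternatives the adjusted p ran from 0.00475 to 0.385 at the acute and from 0.00719 to 0.229 at the prolonged time.

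Tmprss2, whose product cleaves viral entry proteins at the cell surface, fell at the prolonged time. DKO libraries had 288, 271, 296, 296 and 328 CPM, against 369, 333 and 345 CPM in controls, with no overlap (log2 fold change -0.24 ± 0.06, limma adjusted p = 0.0246). The call was lost without prolonged DKO 1 (0.0526), control 1 (0.0812) or control 3 (0.0786), and over the 16 alternatives the adjusted p ran from 0.00668 to 0.0812. At the acute time DKO libraries ranged from 295 to 365 CPM with a median of 325, against 353, 399, 363, 374 and 354 CPM in controls. Here 6 of 7 DKO libraries lay below every control, and the log2 fold change of -0.19 ± 0.06 missed the threshold (adjusted p = 0.0562). The acute value depended on the scaling. It was -0.10 with TMM-scaled CPM (limma adjusted p = 0.214) and -0.10 in edgeR with TMM factors (adjusted p = 0.227). The authors' deposited table gives -0.09 with an adjusted p of 0.187.

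Tmprss15 encodes enteropeptidase, the brush-border enzyme that turns pancreatic trypsinogen into trypsin. It fell at the prolonged time, with 17.6, 31.4, 33.3, 17.1 and 19.6 CPM in DKO libraries, against 33.3, 43.3 and 45.0 CPM in controls. DKO 3 and control 1 lay at nearly the same value, and the other 4 DKO libraries lay below every control. The log2 fold change was -0.79 ± 0.21 (limma adjusted p = 0.0265). This call was lost without prolonged DKO 1 (0.0511), DKO 4 (0.0545), DKO 5 (0.0619), control 2 (0.0819) or control 3 (0.115), and in DESeq2 (0.0584), and over the 16 alternatives the adjusted p ran from 0.00842 to 0.115. At the acute time it ranged from 44.5 to 65.0 CPM with a median of 50.3 in DKO libraries, against 36.1, 27.3, 46.1, 69.9 and 85.9 CPM in controls, and all DKO libraries lay inside the control range (0.13 ± 0.23, adjusted p = 0.769). The summed level of pancreatic acinar markers, of which 11 of 13 were in the acute and 5 of 13 in the prolonged table and none was at 0 in every library, was 7.97 to 49.1 CPM in acute DKO libraries and 58.6 to 183 CPM in acute controls. At the prolonged time it was 21.6 to 60.7 CPM in DKO libraries and 92.8 to 110 CPM in controls. Only 2 of these markers passed the minimum at each time, and 1 was called lower at each (all genes: 12.1% and 8.94%). The part of these markers in the Tmprss15 result was not tested.

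Of the other expressed genes, neither called nor among the 10 uncalled ones of highest level, 15 were counted together. Of these, 11 were tested at the acute time, with mean levels of 0.489 to 2.88 CPM in DKO libraries and 0.572 to 2.18 CPM in controls. Their log2 fold changes lay between -0.49 and 0.26, with a lowest limma adjusted p of 0.137. After 5 months 14 were tested, with means of 0.462 to 2.20 CPM in DKO libraries and 0.421 to 2.96 CPM in controls. The fold changes there lay between -0.31 and 0.39, with a lowest limma adjusted p of 0.221. They were the kallikrein genes Klk8 and Klk1b5, the protease genes Prss27, Prss36, Prss41 and Prss53, the transmembrane protease genes Tmprss6, Tmprss7 and Tmprss9, antithrombin (Serpinc1), neuroserpin (Serpini1), Serpine3 and the alpha-1-antitrypsin genes Serpina1b, Serpina1c and Serpina1e.

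**Figure D3:**
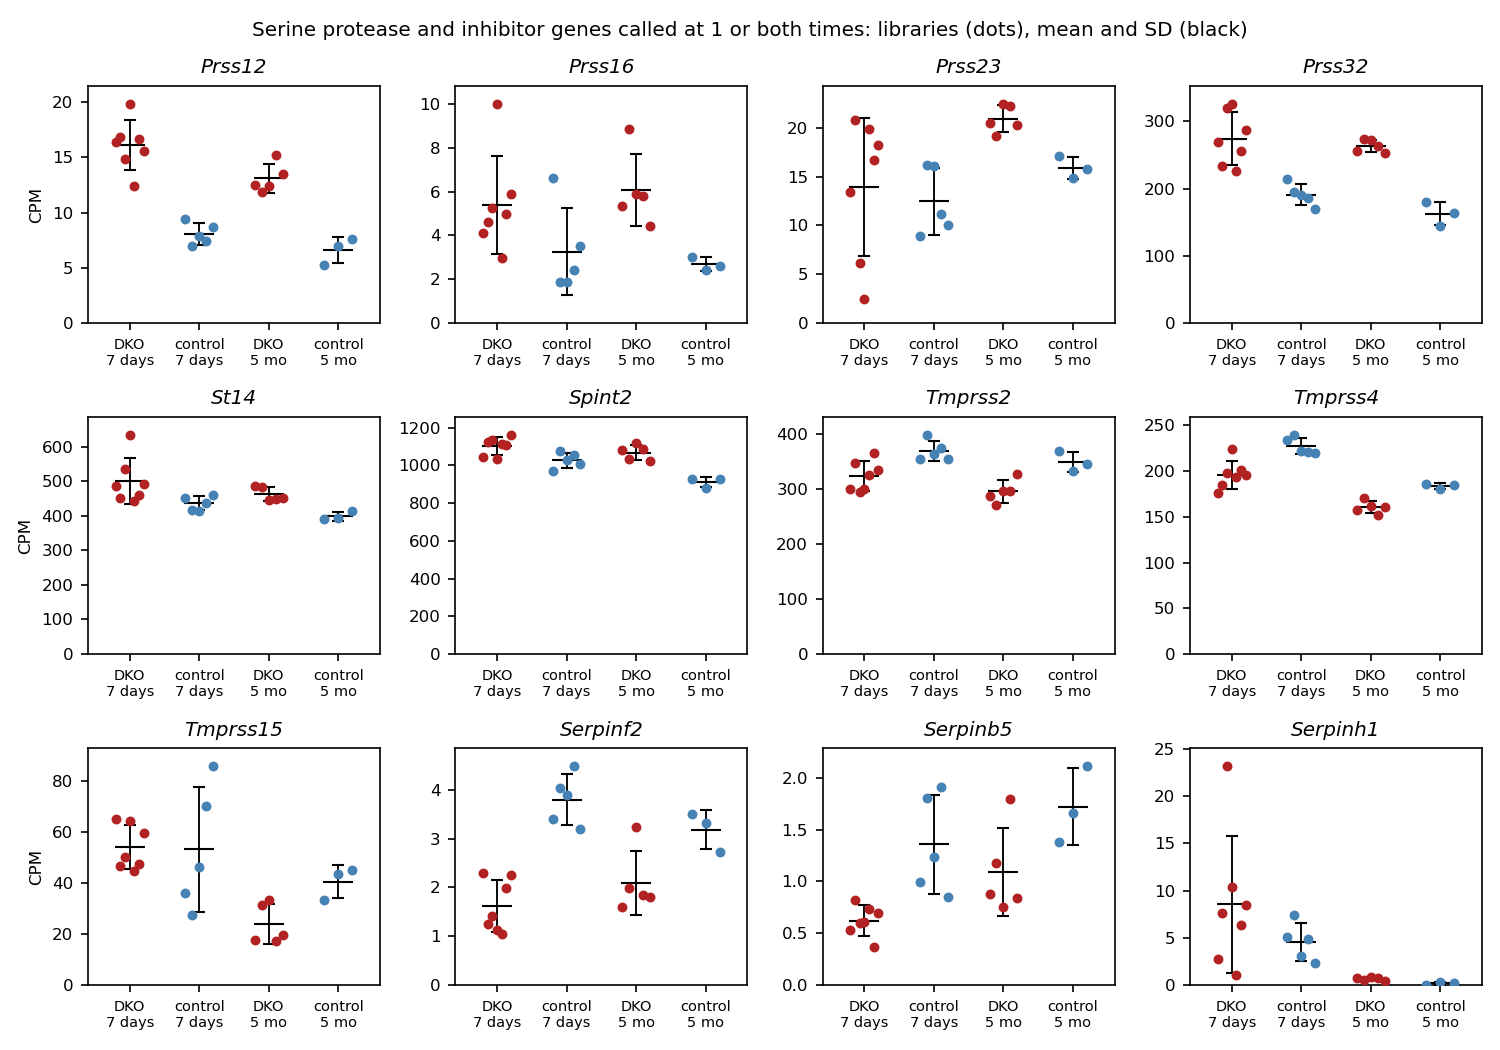
CPM of the 12 genes called at 1 or both times, 1 dot per library, with the mean and SD in black; DKO in red stands left of its control in blue at 7 days and at 5 months. Prss12 and Prss32 show no overlap between genotypes at either time, and Serpinf2 and Serpinb5 none at 7 days.

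Of the 16 inhibitor genes tested at the acute time, 2 were called lower, both serpins, and none higher. Among all genes 12.1% were called lower and 2.90% higher, so these counts were near the shares of all genes. Serpinf2 encodes alpha-2-antiplasmin, the main plasma inhibitor of plasmin. It ranged from 1.05 to 2.29 CPM with a median of 1.41 in acute DKO libraries, against 3.40, 4.03, 3.89, 4.49 and 3.19 CPM in acute controls, with no overlap. The log2 fold change was -0.89 ± 0.15 (limma adjusted p = 0.00160), and the call held in each of the 22 acute alternatives. At 5 months DKO libraries had 1.59, 1.98, 3.23, 1.84 and 1.80 CPM, against 3.49, 3.32 and 2.72 CPM in prolonged controls. DKO 3 lay inside the control range and the other 4 below it, and the log2 fold change of -0.45 ± 0.16 was not called (adjusted p = 0.0890). Without prolonged DKO 3 it was -0.57 and was called (adjusted p = 0.0145), while over the 16 alternatives the adjusted p ran from 0.0145 to 0.410.

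Serpinb5 encodes maspin, a serpin that does not inhibit proteases in the usual way. It ranged from 0.366 to 0.824 CPM with a median of 0.606 in acute DKO libraries, against 0.990, 1.81, 1.23, 1.91 and 0.849 CPM in acute controls, with no overlap and little distance. The log2 fold change was -0.52 ± 0.13 (limma adjusted p = 0.0178), and the scale understates changes at such low levels. The call was lost without acute control 4 (0.0557), and over the 21 alternatives the adjusted p ran from 0.00829 to 0.0923. In prolonged libraries it averaged 1.09 ± 0.425 CPM in DKO libraries and 1.72 ± 0.372 in controls (-0.39 ± 0.17, adjusted p = 0.154).

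The abundant intracellular serpins Serpinb1a and Serpinb6a were not called, nor was the secreted inhibitor gene Spink1. Serpinb1a ranged from 448 to 662 CPM in acute DKO libraries and from 460 to 594 CPM in acute controls, and from 497 to 565 CPM and from 426 to 545 CPM in prolonged DKO and control libraries. It was not called at either time (log2 fold changes 0.13 ± 0.10 and 0.10 ± 0.08, limma adjusted p = 0.422 and 0.435). Serpinb6a averaged 373 ± 24.6 and 343 ± 17.9 CPM in acute DKO and control libraries and 336 ± 15.2 and 299 ± 23.7 CPM in prolonged ones. At the prolonged time every DKO library lay above every control, and the log2 fold change of 0.17 ± 0.06 was not called (adjusted p = 0.0903). Spink1 averaged 279 ± 55.5 and 284 ± 32.4 CPM in acute DKO and control libraries and 271 ± 20.2 and 284 ± 58.5 CPM in prolonged ones (limma adjusted p = 0.881 and 0.811).

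Serpins also known from immune cells were at lower levels, and none was called. Serpinb9, an inhibitor of granzyme B, averaged 7.26 ± 1.26 and 7.65 ± 1.54 CPM in acute DKO and control libraries and 7.60 ± 1.24 and 5.64 ± 0.871 CPM in prolonged ones (limma adjusted p = 0.819 and 0.102). Serpina3g averaged 8.09 ± 2.86 and 7.41 ± 1.10 CPM in acute DKO and control libraries and 7.37 ± 2.39 and 5.24 ± 1.98 CPM in prolonged ones (limma adjusted p = 0.969 and 0.264). Serpinb6b averaged 3.10 ± 1.40 and 2.49 ± 0.479 CPM in acute DKO and control libraries and 2.59 ± 1.34 and 1.58 ± 0.629 CPM in prolonged ones (limma adjusted p = 0.646 and 0.365). The summed level of T and NK cell markers, of which 11 of 12 were in each table, was 331 to 1036 CPM in acute DKO libraries and 546 to 944 CPM in acute controls. At the prolonged time it was 469 to 1114 CPM in DKO libraries and 357 to 763 CPM in controls. The part of these cells in the serpin values was not tested.

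Serpina9, a serpin known from germinal centre B cells, lay below the minimum and was chosen after its values were seen. It had 0 to 0.320 CPM in acute DKO libraries, resting on 0 to 7 reads each, and 0.425 to 0.648 CPM in acute controls, with no overlap. Without the filter on low values limma gave -0.46 (adjusted p = 0.00157), and the authors' deposited table gives -1.95 with an adjusted p of 0.00446. After 5 months it had 0 to 0.344 CPM in DKO libraries and 0.101 to 0.604 CPM in controls, and was not called without the filter (-0.31, limma adjusted p = 0.166). Summed over 6 B and plasma cell markers, the level was 6.81 to 25.8 CPM in acute DKO libraries and 5.41 to 23.3 CPM in acute controls. The part of B cells in the Serpina9 values was not tested.

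Serpins of connective tissue and vessels were spread widely among the acute libraries. Serpinh1, the collagen chaperone Hsp47, which is not an inhibitor, ranged from 1.05 to 23.2 CPM with a median of 7.66 in acute DKO libraries, against 5.08, 7.42, 3.11, 4.83 and 2.34 CPM in acute controls (log2 fold change 0.50 ± 0.48, limma adjusted p = 0.548). Prolonged DKO libraries had 0.717, 0.556, 0.894, 0.728 and 0.421 CPM, against 0, 0.344 and 0.202 CPM in prolonged controls. The prolonged values rest on 7 to 15 reads per DKO library and 0 to 6 reads per control library. Serpinh1 was called at that time (0.50 ± 0.15, adjusted p = 0.0441), but it passed the minimum through 4 DKO libraries and no control, so it had to differ. The call was lost in edgeR (0.0586) and DESeq2 (0.0539) and without prolonged DKO 1, 2, 3 or 4 (0.0779, 0.0610, 0.0836 and 0.0868) or control 1 or 3 (0.155 and 0.109), and over the 15 alternatives the adjusted p ran from 0.0207 to 0.178.

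Serping1, the C1 inhibitor, averaged 5.996 ± 4.55 and 3.99 ± 1.496 CPM in acute DKO and control libraries and 0.642 ± 0.392 and 0.407 ± 0.108 CPM in prolonged ones (limma adjusted p = 0.680 and 0.566). Summed over 15 stromal, muscle and endothelial markers, of which none was at 0 in every library, the level was 21.1 to 662 CPM in acute DKO libraries and 31.5 to 179 CPM in acute controls. Of these markers 14 were in the prolonged table, with sums of 7.46 to 16.0 CPM in DKO libraries and 5.68 to 7.36 CPM in controls. Acute DKO 3 held the highest marker sum of all 20 libraries and the highest Serpinh1 and Serping1. The prolonged DKO sums lay above those of every prolonged control. Only 5 of the markers were tested at that time, with 1 called higher and 1 lower (all genes: 5.74% and 8.94%). The part of stromal cells in these serpin values was not tested, and since both tables were made separately no test was made between the levels of both times.

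**Figure D4:**
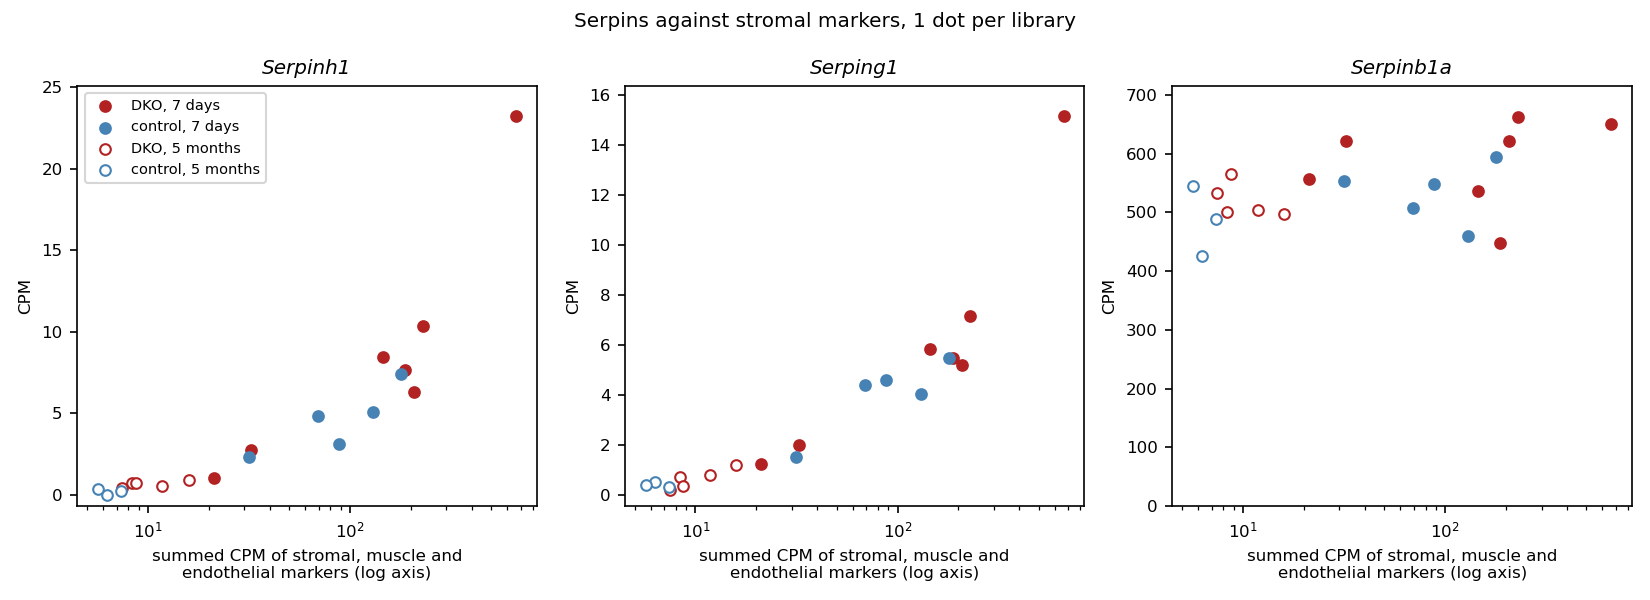
CPM of Serpinh1, Serping1 and Serpinb1a against the summed CPM of the stromal, muscle and endothelial markers (log axis), 1 dot per library, DKO in red, control in blue, filled at 7 days and open at 5 months. Acute DKO 3, at a marker sum of 662 CPM, has the highest values of Serpinh1 and Serping1, while Serpinb1a lies between 426 and 662 CPM throughout.

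The genotype difference was then compared between times as the prolonged minus the acute log2 fold change, on the 32 genes tested at both. limma called none of them, against 5 of 13088 genes in all (0.0382%), and edgeR with an interaction term called none of the set and none of all genes. Without adjustment, 2 of the 32 genes (6.25%) had p under 0.05 by limma and 1 (3.12%) by edgeR, near the 6.78% and 3.77% of all genes. Those by limma were Tmprss15, whose change was lower at the prolonged time (-0.91 ± 0.31, limma adjusted p = 0.712), and Serpinb9 (0.43 ± 0.20, limma adjusted p = 0.712), and neither is shown to differ. Genes called at 1 time only, such as Serpinf2, Prss16 and Spint2, are therefore not shown to differ between times.

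The wider protease network was read from 3 lists of related genes. Of 46 further trypsin-family proteases, 23 were tested at 7 days and 17 at 5 months. None was higher at either time, and 2 (8.70%) and 3 (17.6%) were lower, against 12.1% and 8.94% of all genes, with median log2 fold changes of 0.01 and 0.07 (all genes -0.07 and 0.00). Habp2, a plasma protease that binds hyaluronan, fell at both times, to 10.2 CPM in acute DKO libraries against 26.4 in acute controls (-1.41 ± 0.33, limma adjusted p = 0.0120) and to 13.6 CPM in prolonged DKO libraries against 28.4 in prolonged controls (-1.08 ± 0.24, adjusted p = 0.0109). Hgfac, whose product activates hepatocyte growth factor and is inhibited by HAI-1, fell by 0.34 and 0.44 on the log2 scale (adjusted p = 0.0299 and 0.0159). Complement factor I (Cfi) fell at the prolonged time, with 4.78 CPM in DKO libraries against 9.88 in controls (-0.89 ± 0.16, adjusted p = 0.00403).

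Of 27 further inhibitors, 13 were tested at the acute time, with none higher and 5 lower (38.5%, all genes 12.1%). At the prolonged time 12 were tested, with 1 higher (8.33%, all genes 5.74%) and 6 of the 12 lower (all genes 8.94%). Their median log2 fold changes were -0.40 and -0.48 (all genes -0.07 and 0.00). Summed over the 6 liver markers of 10 that were in each table, none at 0 in every library, the level was 3.99 to 24.1 CPM in acute DKO libraries and 7.38 to 16.9 CPM in acute controls. In prolonged libraries it was 5.49 to 7.62 CPM in DKO and 8.66 to 9.88 CPM in controls, without overlap. The part of these markers, which include Serpina1c and Serpina1e of the set, in the inhibitor values was not tested. Tfpi2 and Tfpi, Kunitz-type inhibitors of the tissue factor pathway family, fell at both times, by 0.98 and 0.75 on the log2 scale at the acute and by 0.87 and 0.76 at the prolonged time. Papln, which carries Kunitz domains, fell to 7.65 CPM in acute DKO libraries against 13.9 in acute controls (-0.78 ± 0.10, limma adjusted p = 0.000387) and to 6.50 CPM in prolonged DKO libraries against 12.4 in prolonged controls (-0.84 ± 0.13, adjusted p = 0.00168). Ambp, the precursor of bikunin, and the broad inhibitor gene Pzp were also called lower at both times. Levels were low, with acute DKO and control means of 0.778 and 2.47 CPM for Tfpi2 and 1.41 and 2.79 CPM for Ambp. Those of Pzp were 0.374 and 1.14 CPM at the acute and 0.434 and 1.42 CPM at the prolonged time. The DKO medians of Pzp lay below the 0.5 CPM minimum and every control above it. The controls alone were thus enough for Pzp to pass. The sixth prolonged gene that was lower was Itih5 and the 1 that was higher was the proteoglycan gene Spock2 (0.60 ± 0.13, adjusted p = 0.0106), both named after their values were seen.

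Of 26 substrates, receptors and partners, 19 were tested at the acute time, with 3 higher (15.8%, all genes 2.90%) and 1 lower (5.26%, all genes 12.1%). At the prolonged time 18 were tested, with 2 higher (11.1%, all genes 5.74%) and 3 lower (16.7%, all genes 8.94%). Pcsk6, a proprotein convertase, fell to 4.12 CPM in acute DKO libraries against 13.0 in acute controls (-1.46 ± 0.20, limma adjusted p = 0.000480) and to 2.63 CPM in prolonged DKO libraries against 13.3 in prolonged controls (-1.94 ± 0.19, adjusted p = 5.37e-05). The related convertase gene Pcsk5 rose by 0.32 ± 0.05 and 0.28 ± 0.04 on the log2 scale (adjusted p = 0.00163 at both times). Enpep, a brush-border aminopeptidase gene, rose by 0.46 ± 0.12 and 0.31 ± 0.07 (adjusted p = 0.0181 and 0.0157). At the prolonged time the epithelial sodium channel gene Scnn1a, whose product membrane proteases can cleave, fell by 0.29 on the log2 scale and the transferrin receptor gene Tfrc by 0.36 (adjusted p = 0.0258 and 0.0479).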

How the data were processed

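Libraries were prepared from poly(A)-selected RNA, and the sources used here do not say whether counting used strand. The submitters' processing notes list mm9 as the genome build and DESeq2, featureCounts 1.6.2, STAR, bedtools 2.27.1, SAMtools 1.9 and FastQC 0.11.5 as tools. The authors deposited 1 table per time with CPM per library, a mean signal per gene over libraries, a log2 fold change with its error, and p-values with adjusted p-values, per the file headers. The CPM values gave whole reads in every library, all of them within 0.01 reads of a whole number, and for prolonged control 3 the evidence is weaker because its step lies near a power of 10. Of the columns, 4 per table were not used as sample values, and 24 acute symbols had been turned into dates.

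limma 3.58.1 (R 4.3.3) was fitted at each time to log2(CPM + 1) with a trend, DKO against control without covariates, on genes with at least 0.5 CPM in 5 acute or 3 prolonged libraries, with Benjamini-Hochberg adjustment over all genes and a threshold of 0.05. The difference between times was tested from both fits on 13088 genes. A fold change on this scale understates the change of low genes. edgeR 4.0.16 and DESeq2 1.42.0 were run on the recovered reads. limma, edgeR with TMM factors, DESeq2 and the limma difference between times were first run on simulated reads, with the same dispersion for every gene. The edgeR interaction model, TMM-scaled CPM, relative log expression scaling and the block designs were not simulated. Within each group, all 44 pairs of libraries differed by 6.49 to 148 times the sampling variance, so none was deposited more than once in its group. Pairs of libraries from different groups were not compared. Lengths came from GENCODE M21 (GRCm38), not from mm9. The named genes are those called at either time, the 10 uncalled genes of highest mean CPM, Kdm6a and Kdm6b, and from each list up to 4 called genes per time by fold change. The genes and lists were chosen with earlier results of these data known. Single values of some genes of the set and lists are not reported here.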

Additional observations from a re-analysis of the deposited data

Results flagged for a closer look

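In the named genes, 66 groups of 4 to 10 libraries were searched for a library far from its group by Dixon's criterion, and 7 were found, where chance gives about 1 in 20. They lay in 7 of the 44 DKO groups and 0 of the 22 control groups searched, and the prolonged controls were too few to search. In acute DKO 4, Prss16 was at 10.02 CPM (nearest other library 5.87) and Serpina3g at 2.14 CPM (nearest 7.32). The same library had a mast cell marker sum of 261 CPM, against 27.7 to 37.9 CPM in the other acute DKO libraries and 23.8 to 44.5 CPM in controls. In acute DKO 3, which had the highest stromal marker sum, Serpinh1 was at 23.2 CPM (nearest 10.4) and Serping1 at 15.1 CPM (nearest 7.13). In prolonged DKO 3, Serpinf2 was at 3.23 CPM (nearest 1.98) and Prss8 at 34.4 CPM (nearest 28.3). In prolonged DKO 4, Serpinb6a was at 362 CPM (nearest 335). The part of the marker sums in these values was not tested.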

How the results depend on the processing

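Of 1530 values of the 22 named genes and of Kdm6a and Kdm6b under the alternatives, 1487 kept their side of the threshold, 37 lost the call and 6 gained one. None of the called values changed sign, while 96 of the 1487, all of them not called, had the opposite sign, as for Prss23 at the acute time. Leaving out 1 library accounted for 20 of the losses and 3 of the gains. The count of genes called in the set ran from 4 to 6 at the acute time and from 5 to 10 at the prolonged time when 1 library was left out, with 5 without prolonged control 3, and stayed at 0 for the difference between times. Over all genes, the calls fell to 1237 without acute control 3, against 2035, and to 1052 without prolonged control 3, against 1955. The cause was not tested.

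The correlations of same-numbered deviations ran from -0.20 to 0.20 at the acute and from -0.24 to -0.16 at the prolonged time. Differently numbered libraries were not compared, so whether the replicate numbers pair the libraries was not settled. With the replicate number as a block, in which a library without a same-numbered partner adds nothing to the difference, 3 acute and 4 prolonged genes of the set were called, all of them among the 5 and 10, and 947 and 528 of all genes. With blocks of neighbouring animal numbers 4 acute genes of the set were called, and 1419 of all genes against 2035 without blocks. Serpinb5 was lost (limma adjusted p = 0.0573). Acute DKO 3 and DKO 4 shared a block without a control, and acute control 5 was alone in its block. In this design these libraries add nothing to the difference.

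Precision was limited by 3 controls at the prolonged time, of which 1 had 9914738 reads in genes, and by the spread among acute libraries, since the standard error was larger at the acute time for 23 of the 32 genes of the set tested at both. Levels near 1 CPM rest on few reads.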
